A study of Mus musculus with 4 samples.

Results

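The genes described here are 8 genes of cholesterol synthesis and its feedback control: Hmgcs1, Idi1, Fdft1, Sqle, Lss, Cyp51 and Dhcr7, which encode enzymes of the pathway, and Insig1, which encodes its sterol-sensitive brake. They were chosen by name, and each was read from the row of the deposited table whose RefSeq identifier carries that symbol, taking the row with the highest mean where there were several. All 8 were found among 23697 loci, and 7 had a value above 0. RNA was measured in WW6 mouse embryonic stem cells of a mixed C57/B6J, 129/Sv and SJL background, grown without feeder cells in serum with leukemia inhibitory factor. The 2 control libraries came from cells that got a mock control construct per the sample labels, or small interfering RNA against GFP per the treatment protocol, and the 2 knockdown libraries from cells given small interfering RNA (in the labels, a construct) that targets Kdm5b, a demethylase of lysine 4 of histone H3. Per that protocol, both groups shared the lipid transfection reagent, the spell in serum-free medium and the return to regular medium. The transfection was transient, the time from transfection to harvest is not given in the sources used here, and nothing in the labels makes libraries A and B of a group separate cultures. The p-values therefore cover only library-to-library spread, which may be technical.

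Animal cells build cholesterol from acetyl-CoA through mevalonate, isoprenoids, squalene and lanosterol. When sterols are scarce, the SCAP protein escorts the SREBP transcription factors from the endoplasmic reticulum to the Golgi, where they are cleaved and released to switch on most genes of the pathway. When sterols are plentiful, INSIG proteins hold SCAP back, and since Insig1 is itself an SREBP target it closes a feedback loop. On promoters SREBP binds sterol regulatory elements and works together with the factor NF-Y, which binds CCAAT boxes.

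The sequences upstream of the start sites are shown because SREBP and NF-Y act there. Of the 4 genes printed, 3 shared a low value in 1 control library, while Lss did not. Whether the sequences bear on those values was not tested. RefSeq promoter windows (GRCm38.p6) matched 6 of the 8 genes, all but Sqle and Fdft1. The bases just after the start were found in a transcript of the gene for every window except those of Hmgcs1 and Lss. For Hmgcs1 and Lss the start, and so the matches before it, are less certain. The 250 bases before each start were searched on both strands for TCACNCCAC and TCACNNCA, a stricter and a looser spelling of the sterol regulatory element that can overlap each other, for CCAAT and for the E-box CACGTG. Capitals mark every match, 5′ to 3′ along the gene, with ATTGG being CCAAT on the other strand. The windows are chr5:4104698-4104947 on the minus strand for Cyp51 and, on the plus strand, chr5:28071162-28071411 for Insig1, chr7:143829964-143830213 for the third of 3 listed starts of Dhcr7, and chr10:76531355-76531604 for Lss.
Cyp51: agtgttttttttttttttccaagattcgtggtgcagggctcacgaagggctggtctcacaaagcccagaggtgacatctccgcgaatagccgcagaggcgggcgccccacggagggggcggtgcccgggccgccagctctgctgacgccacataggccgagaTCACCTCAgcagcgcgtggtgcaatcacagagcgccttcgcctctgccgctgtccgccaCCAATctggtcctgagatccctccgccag
Insig1: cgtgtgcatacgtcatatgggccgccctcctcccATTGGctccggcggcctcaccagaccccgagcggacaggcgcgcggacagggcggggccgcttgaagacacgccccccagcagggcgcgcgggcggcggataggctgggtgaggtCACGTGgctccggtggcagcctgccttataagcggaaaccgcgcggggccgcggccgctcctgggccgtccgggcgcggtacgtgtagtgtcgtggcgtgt
Dhcr7: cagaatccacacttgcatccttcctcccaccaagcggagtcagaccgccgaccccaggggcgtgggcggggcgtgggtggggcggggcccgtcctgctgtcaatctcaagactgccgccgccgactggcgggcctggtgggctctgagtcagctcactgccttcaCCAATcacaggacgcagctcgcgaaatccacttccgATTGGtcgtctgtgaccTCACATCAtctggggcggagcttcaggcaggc
Lss: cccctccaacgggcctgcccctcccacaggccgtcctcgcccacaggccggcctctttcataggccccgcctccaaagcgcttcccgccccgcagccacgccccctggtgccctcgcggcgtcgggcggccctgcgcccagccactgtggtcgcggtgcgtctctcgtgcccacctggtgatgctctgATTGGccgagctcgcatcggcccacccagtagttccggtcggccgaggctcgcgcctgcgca
CCAAT was present in all 6 genes with a window, against 37.5% of all 27025 genes with one, and in 10 of 11 other enzymes of the pathway with a window. TCACNNCA was present in Hmgcs1, Cyp51 and Dhcr7, against 13.0% of all genes, and in Cyp51 it lay at positions -88 to -81 from the start. Idi1, whose window is not printed, was also lowest in control A, and it held 2 CCAAT matches and no TCACNNCA. TCACNCCAC was present only in Hmgcs1 among the 6, against 1.22% of all genes. CACGTG was present in Dhcr7 and Insig1, against 6.86%. Of 3 listed starts of Dhcr7, the third held CCAAT and TCACNNCA and the second TCACNNCA and CACGTG. A match is a run of letters and not a measured binding site.

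The values are FPKM, a fragment count divided by transcript length and by the mapped total, so levels of different genes can be set side by side. Tests covered the 11784 loci whose mean reached 1 FPKM. Judged by the steps among low values, control A, knockdown A and knockdown B had an estimated 102%, 76.3% and 98.6% of the depth of control B, and knockdown A listed 11953 loci at 0 against 8131 to 8609 in the others. Kdm5b stood at 99.7 FPKM in control A, 145 in control B, 22.7 in knockdown A and 31.1 in knockdown B. Its log2 fold change of -2.14 did not pass the test over all loci (limma adjusted p = 0.562). All 8 stem cell markers checked, Pou5f1 and Nanog among them, lay between 89.4 and 1797 FPKM in every library. In bulk RNA, fewer cells of a type and less RNA per cell cannot be told apart.

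Across the pathway, the 7 genes that could be read were not shown to differ between knockdown and control cells, and libraries of the same group stood apart. Control A held the lowest value of the 4 libraries for 6 of the 7, and control B exceeded it by between 1.52-fold for Insig1 and 7.17-fold for Idi1. All 7 were on the higher side in knockdown, by log2 fold changes of 0.23 to 0.92, and 0 of 7 passed the limma test (Benjamini-Hochberg adjusted p under 0.05, two-sided), where 0.0339% of all tested loci did. On the same side were 47.1% of all tested loci. At an unadjusted limma p under 0.05 the count was also 0 of 7, against 2.46% of all loci.

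**Figure D1:**
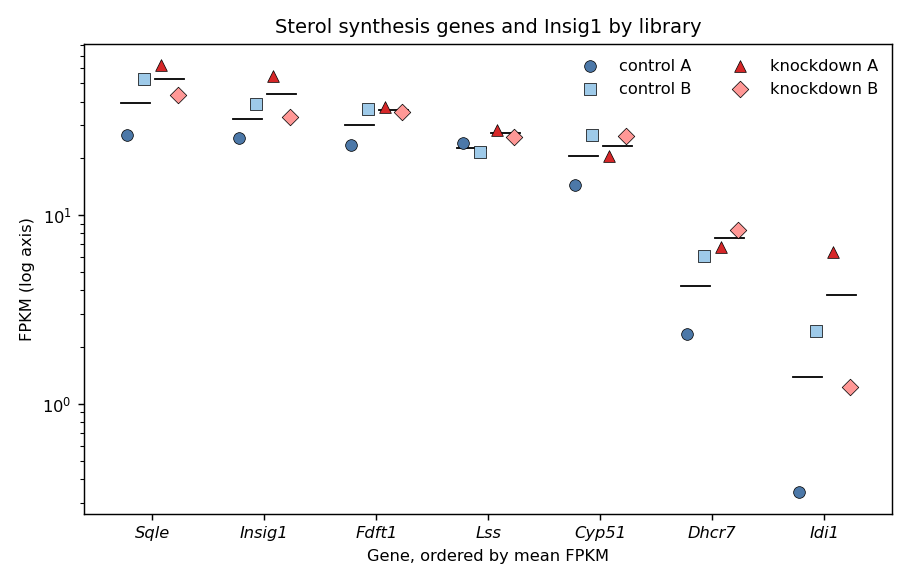
FPKM on a log axis for the 7 genes above 0, ordered by mean; each symbol is 1 library and each black line the mean of the 2 libraries of a group. Control A (dark blue circles) is the lowest library for each gene except Lss.

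Hmgcs1 encodes the cytosolic HMG-CoA synthase, which acts at the start of the mevalonate route. It was listed at 0 FPKM in all 4 libraries, on 2 rows that carry the same transcript at separate places on the unplaced sequence chr13_random of mm9, the first at bases 114709 to 132325. The sources used here do not say how fragments that match both places were counted. The level of Hmgcs1 is thus not known, and it entered no test.

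Idi1 encodes the isopentenyl diphosphate isomerase that supplies building blocks for longer isoprenoids. It had the lowest level of the 7 genes, at 0.339 FPKM in control A, 2.43 in control B, 6.35 in knockdown A and 1.23 in knockdown B (mm9 chr13:8884851-8891642). The groups overlapped, since knockdown B lay between the controls. These values stand for an estimated 4.21, 29.5, 58.8 and 14.8 fragments, against 26.8 or more for each other gene in each library. The log2 fold change was 0.92 with a 95% interval of -1.05 to 2.89 (limma adjusted p = 0.918). It was 0.060 without knockdown A, 1.78 without knockdown B, 0.24 without control A and 1.60 without control B, and 1.48 with a pseudocount of 0.1.

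Fdft1 encodes squalene synthase, the first enzyme committed to sterols. It stood at 23.4 FPKM in control A, 36.4 in control B, 37.4 in knockdown A and 35.1 in knockdown B (mm9 chr14:63741298-63796630). Control A alone stood apart, and the other 3 libraries lay between 35.1 and 37.4 FPKM. The log2 fold change was 0.30 (standard error, SE, 0.30; limma adjusted p = 0.918) and -0.0061 without control A and 0.61 without control B. The locus of Fdft1 shares bases with that of Ctsb, and whether strand was used in counting is not given in the sources used here.

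Sqle encodes squalene epoxidase, which adds the oxygen to squalene and is a second control point of the pathway. Its mean was the highest of the 7, and it stood at 26.5 FPKM in control A, 52.5 in control B, 62.3 in knockdown A and 43.4 in knockdown B (mm9 chr15:59146646-59162748). The controls enclosed knockdown B, so the groups overlapped. The group means were 39.5 ± 18.4 and 52.8 ± 13.4 FPKM (SD, n = 2 each), a difference smaller than the SD of the controls. The log2 fold change of 0.47 (SE 0.39; limma adjusted p = 0.918) went to -0.015 without control A, 0.95 without control B, 0.21 without knockdown A and 0.72 without knockdown B.

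Lss encodes lanosterol synthase, which folds the oxidised squalene into the first sterol. It was the steadiest of the 7, at 24.1 FPKM in control A, 21.5 in control B, 28.3 in knockdown A and 26.0 in knockdown B (mm9 chr10:75994371-76024971). Both knockdown libraries lay above both controls, as at 15.0% of all tested loci. The difference was small, with means of 22.8 ± 1.85 and 27.2 ± 1.65 FPKM (SD, n = 2 each), a log2 fold change of 0.24, a 95% interval of -0.38 to 0.86 and a limma adjusted p of 0.918. Lss shares bases with the locus of 4930483K19Rik.

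Cyp51 encodes the demethylase that starts the conversion of lanosterol. It stood at 14.5 FPKM in control A, 26.5 in control B, 20.6 in knockdown A and 26.2 in knockdown B (mm9 chr5:4080673-4104697). Both knockdown libraries lay inside the range of the controls. The log2 fold change was 0.23 (SE 0.36; limma adjusted p = 0.934), and -0.18 without control A. It was 0.64 without control B, 0.062 without knockdown B and 0.40 without knockdown A. Its upstream window, printed above, held 1 CCAAT box and the looser sterol element.

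Dhcr7 encodes the last enzyme of one branch, which turns 7-dehydrocholesterol into cholesterol. It stood at 2.33 FPKM in control A, 6.11 in control B, 6.82 in knockdown A and 8.36 in knockdown B (mm9 chr7:151009071-151034315). With Lss it was 1 of 2 of the 7 genes for which both knockdown libraries lay above both controls, as at 15.0% of all tested loci. The means were 4.22 ± 2.67 and 7.59 ± 1.09 FPKM (SD, n = 2 each), a ratio of 1.80 and a log2 fold change of 0.81 (SE 0.48; limma adjusted p = 0.918). Without control A the log2 fold change was 0.27. Without control B it was 1.36.

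Insig1, the feedback brake, stood at 25.7 FPKM in control A, 39.0 in control B, 54.5 in knockdown A and 33.0 in knockdown B (mm9 chr5:28397951-28405202). Knockdown B lay between the controls, so the groups overlapped. The means were 32.3 ± 9.39 and 43.7 ± 15.1 FPKM (SD, n = 2 each). The log2 fold change of 0.41 (SE 0.35; limma adjusted p = 0.918) was 0.060 without knockdown A, 0.76 without knockdown B, 0.12 without control A and 0.70 without control B. In knockdown A, Insig1 was 1.65 times its level in knockdown B.

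By mean level the order was Sqle at 46.2 FPKM, Insig1 at 38.0, Fdft1 at 33.1, Lss at 25.0, Cyp51 at 22.0, Dhcr7 at 5.90 and Idi1 at 2.59. Neighbours in this order overlapped over the 4 libraries except Cyp51 and Dhcr7, whose ranges were apart. The first 5 stood at the 65.8 to 82.3 percentile of mean FPKM among tested loci, Dhcr7 at 30.2 and Idi1 at 14.9.

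The spread between the controls was larger than the difference between the groups for 6 of the 7 genes, Lss being the exception, and at 52.9% of all tested loci. The knockdown libraries differed more than the controls for 2 of the 7, Idi1 (knockdown B minus A -1.72, control B minus A 1.36) and Insig1 (-0.70 and 0.58), on the log2(FPKM + 1) scale. Control B exceeded control A by at least 0.5 on the log2(FPKM + 1) scale for 6 of the 7, where 12.9% of all tested loci did. The median difference, control B minus control A, was 0.83 for the 7 genes and -0.019 for all tested loci. Control A was the lowest library for 6 of the 7 and at 26.2% of all tested loci. Knockdown A was the highest library for 5 of the 7 and at 33.2% of all tested loci. The median log2 fold change of the 7 was 0.41, against -0.029 over all tested loci. It was 0.12 without control A, 0.70 without control B, 0.21 without knockdown A and 0.68 without knockdown B.

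**Figure D2:**
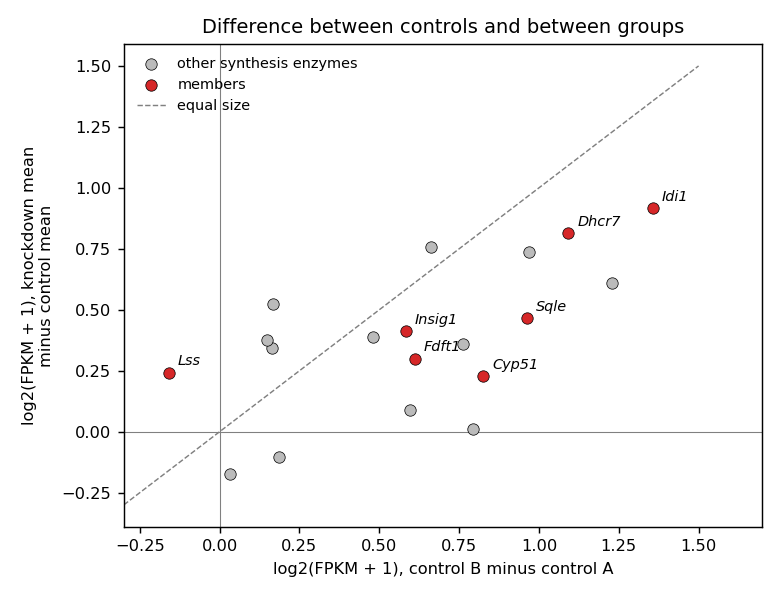
Difference between the 2 controls (horizontal) against the difference between the group means (vertical), both on the log2(FPKM + 1) scale, for the 7 genes (red) and 12 other synthesis enzymes (grey); the dashed line marks equal size. Points right of the line with a positive group difference, such as Idi1, Dhcr7 and Sqle, differed more between the controls than between the groups. Ebp, with a negative group difference, lies right of the line but differed more between the groups. Both axes use the control A value.

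Of 13 other enzymes of cholesterol synthesis on the list, 12 had a row of their own and were tested, while Tm7sf2 shares its row with Vps51 and was left out. Of the 12, 0 passed limma, the fold change was above 0 for 10 and below 0 for 2, with a median log2 fold change of 0.37. It was above 0 at 47.1% of all tested loci. Control A was the lowest library for 10 of the 12 and at 26.2% of all tested loci. Control B lay above control A for all 12, where 48.3% of all tested loci did. Fdps, the farnesyl diphosphate synthase, stood at 41.9 FPKM in control A, 66.9 in control B, 105 in knockdown A and 77.3 in knockdown B. Both knockdown libraries lay above both controls, as for 4 of the 12, Fdps included, and at 15.0% of all tested loci. The log2 fold change was 0.76 (95% interval -0.0044 to 1.52, limma adjusted p = 0.918), the largest of the 12 in size. Without control A it was 0.43. Msmo1, which removes methyl groups from sterols after Cyp51, stood at 25.2 FPKM in control A, 50.3 in control B, 82.1 in knockdown A and 43.9 in knockdown B. As for Sqle, Idi1, Insig1, Fdft1 and, on this list, Pmvk, knockdown A was the highest library, then control B, then knockdown B, and control A the lowest. For Msmo1 the log2 fold change of 0.74 (SE 0.44, limma adjusted p = 0.918) was 0.25 without control A, 0.29 without knockdown A, 1.22 without control B and 1.18 without knockdown B.

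**Figure D3:**
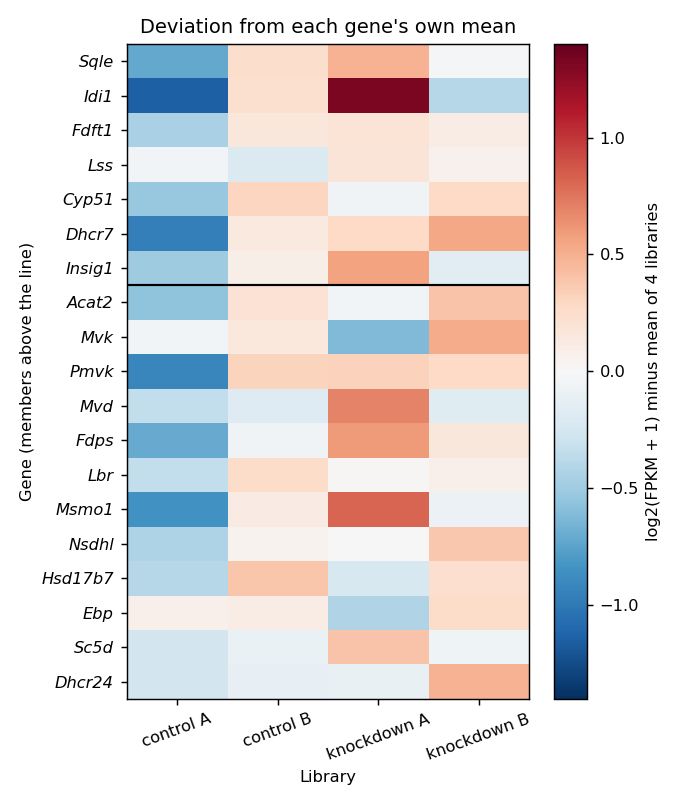
Each row is a gene and each column a library; colour gives log2(FPKM + 1) minus the gene's mean over the 4 libraries, with the 7 genes above the black line and 12 other synthesis enzymes below it. Control A is the lowest library in 16 of the 19 rows, and knockdown A is the highest in 10.

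Apart from Insig1, described above, the listed machinery that controls SREBP did not share the low value in control A. Of its 6 other genes 0 passed limma, and the fold change was above 0 for 3 and below 0 for 3. Control A was the lowest library for 0, against 26.2% of all tested loci. Control B lay above control A for 1, Srebf1, against 48.3% of all tested loci. Srebf2, which encodes the SREBP that mainly drives sterol genes, stood at 22.9 FPKM in control A, 18.7 in control B, 16.9 in knockdown A and 27.0 in knockdown B. Its log2 fold change was 0.048 and turned to -0.091 without control B and to -0.27 without knockdown B. Srebf1, which mainly drives fatty acid genes, stood at 18.4 FPKM in control A, 24.8 in control B, 17.3 in knockdown A and 22.2 in knockdown B, with a log2 fold change of -0.12 that turned to 0.084 without control B and 0.053 without knockdown A. Scap stood at 14.4 FPKM in control A, 8.98 in control B, 15.3 in knockdown A and 13.0 in knockdown B, with a log2 fold change of 0.29 that was 0.60 without control A and -0.024 without control B. Insig2, the second INSIG gene, stood at 7.50 FPKM in control A, 5.74 in control B, 0.713 in knockdown A and 5.59 in knockdown B, so the log2 fold change of -1.17 (SE 0.69; limma adjusted p = 0.918) was -0.20 without knockdown A. Without knockdown B, which leaves knockdown A alone in its group, it was -2.14. Mbtps2, a protease that cleaves SREBP, had a log2 fold change of -0.34 (SE 0.37), which was -0.14 without knockdown A, -0.17 without control A, -0.51 without control B and -0.53 without knockdown B. Srebf1, Srebf2 and Mbtps2 share bases with other loci, among them Rai1, Mir33 and Yy2.

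Of 7 genes of cholesterol uptake and transport, all tested, 0 passed limma, and the fold change was above 0 for 3 and below 0 for 4. Lrp2, the endocytic receptor megalin, stood at 21.7 FPKM in control A, 17.3 in control B, 8.91 in knockdown A and 11.9 in knockdown B. Its log2 fold change was -0.85 (SE 0.31, limma adjusted p = 0.918). Of the 46 pathway genes tested beside the 7, only Lrp2 had an unadjusted limma p under 0.05, as 2.46% of all tested loci did. The summed level of 8 endoderm markers, of which 0 were at 0 in all libraries, was also lower in both knockdown libraries. It was 11.9 FPKM in control A, 17.0 in control B, 3.64 in knockdown A and 3.24 in knockdown B, with Cubn the highest. Between the controls this sum ran opposite to Lrp2, while the knockdown libraries differed little in it. The sum of 6 fibroblast markers was lower in both knockdown libraries too, at 9.50, 5.79, 0.258 and 2.87 FPKM in the same order, while that of trophoblast markers was not. The part of these cell types in the Lrp2 values was not tested. Npc1, which carries cholesterol out of lysosomes, stood at 20.6 FPKM in control A, 15.9 in control B, 5.31 in knockdown A and 16.8 in knockdown B. Its low value was thus in knockdown A alone, and the log2 fold change of -0.85 was -0.10 without that library and -1.60 without knockdown B. Npc1 shares bases with the locus of Rmc1.

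Fatty acid synthesis genes that SREBP also drives were on the higher side in 10 of 11, with 0 passing limma and a median log2 fold change of 0.23. On the same side were 47.1% of all tested loci. Control A was the lowest library for 8 of the 11 and at 26.2% of all tested loci. Both counts use the control A value. Acss2, which makes acetyl-CoA from acetate, was the exception in direction, at 4.55 FPKM in control A, 4.75 in control B, 0.230 in knockdown A and 4.20 in knockdown B. The value in knockdown A stands for an estimated 2.05 fragments. The log2 fold change of -1.16 (SE 0.75) was -0.12 without knockdown A and -2.20 without knockdown B, which leaves knockdown A alone in its group. It was -0.68 after quantile normalization and -2.00 with a pseudocount of 0.1. Lpin1, a phosphatidate phosphatase, stood at 11.3 FPKM in control A, 8.64 in control B, 18.7 in knockdown A and 14.2 in knockdown B, a log2 fold change of 0.67 (SE 0.32; limma adjusted p = 0.918). Scd2, a stearoyl-CoA desaturase named after its values were seen, differed most between the controls among the 11, at 31.5 FPKM in control A and 101 FPKM in control B, with 81.7 and 49.0 FPKM in knockdown A and B.

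The sterol-sensing LXR receptors, efflux and esterification genes had 4 tested of 5 listed, 0 passing limma, 2 on each side, and Nr1h3 under 1 FPKM. Soat1, which esterifies cholesterol for storage, stood at 30.9 FPKM in control A, 19.9 in control B, 17.1 in knockdown A and 17.2 in knockdown B. Here control A was the highest library, and the log2 fold change of -0.51 (SE 0.31; limma adjusted p = 0.918) was -0.20 without it and -0.81 without control B. Abca1, the cholesterol efflux pump and an LXR target, was also highest in control A, at 22.8 FPKM, with 18.7 FPKM in control B and 16.2 and 14.3 FPKM in knockdown A and B (log2 fold change -0.41, SE 0.28, limma adjusted p = 0.918). The 6 genes of the non-sterol branches of the mevalonate pathway divided 3 to 3, with 0 passing limma. The largest in size were Fntb, a farnesyltransferase subunit, at a log2 fold change of -0.48 (SE 0.41), which was -0.083 without knockdown A, -0.14 without control A, -0.88 without knockdown B and -0.82 without control B, and Pdss2, of ubiquinone synthesis, at -0.29 (SE 0.31).

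**Figure D4:**
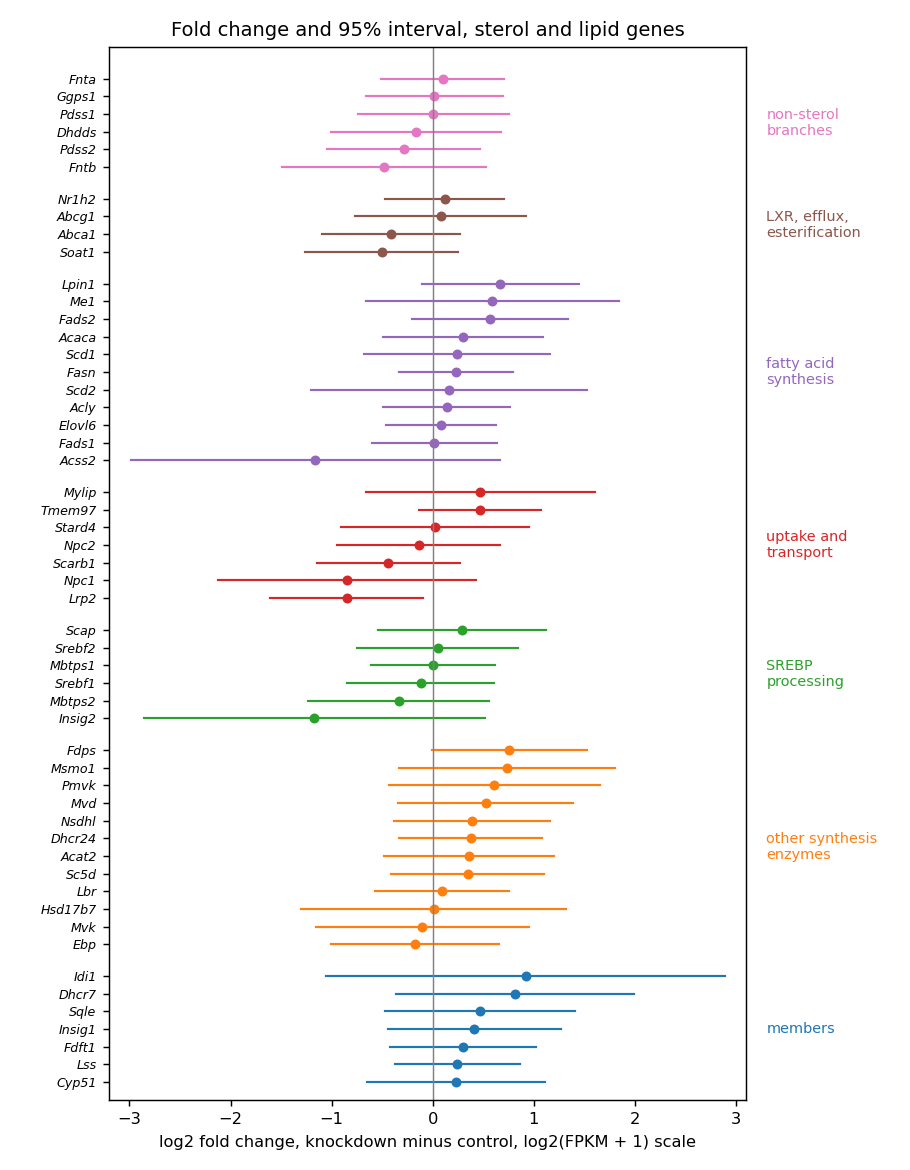
Log2 fold change, knockdown minus control, on the log2(FPKM + 1) scale with its 95% limma interval for the 7 genes and 46 other sterol and lipid genes tested, grouped by role. All intervals but that of Lrp2 include 0. They are not adjusted for the number of loci, and 2.46% of all tested loci had an unadjusted limma p under 0.05.

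The profile over the 4 libraries was then set against all tested loci. The median profile of the 7 genes, as log2(FPKM + 1) minus each gene's mean, was -0.53 in control A, 0.16 in control B, 0.28 in knockdown A and 0.061 in knockdown B. Its widest gap was thus between control A and knockdown A. By Euclidean distance over the 4 libraries Fdft1 lay nearest to it at 0.118 and Idi1 farthest at 1.29. The 3 nearest loci outside the lists were Rnps1, an RNA-binding protein of the exon junction complex, at a distance of 0.0242, Bet1, a Golgi transport SNARE, at 0.0458, and then Txlng. Rnps1 stood at 30.3 FPKM in control A, 48.5 in control B, 53.3 in knockdown A and 46.0 in knockdown B. As near as the median distance of the 7 lay 11.8% of all tested loci, and as near as Idi1 75.6%.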

How the data were processed

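RNA was measured in 4 libraries, 2 control and 2 Kdm5b knockdown. The authors deposited 1 table of FPKM per locus and library; it was made with Cufflinks and Cuffdiff on mm9, per the submitters' processing notes. For versions, aligner and strand setting, nothing is given in the sources used here. Loci were named by RefSeq identifier from a GRCm38.p6 table (1 symbol for 23241 of 23697 loci); coordinates are those of the deposited mm9 table.

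Loci whose mean reached 1 FPKM were tested on log2(FPKM + 1), which understates changes of low genes, with limma 3.58.1 (group only, eBayes with trend) in R 4.3.3, adjusted by Benjamini-Hochberg over all 11784 loci. The fit was also run on simulated counts whose spread was set and not taken from these libraries. That run cannot tell how many real changes the test would miss here. Fragment numbers were estimated from steps in low values, of which 79.2% to 82.4% lay within 0.15 of a whole number, at transcript lengths less 200 bp; they give no interval. Tables used Python 3.11.15, numpy 2.4.6 and pandas 2.3.3, and figures matplotlib 3.10.9.

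The genes and lists were chosen with earlier results of these data known, and the motifs with the promoter sequences in view. Beside the 8 genes, Kdm5b, Srebf1, Srebf2 and Scap were always named, and from each list the 2 tested genes with the largest absolute log2 fold change. Lists used rows with 1 symbol, and some listed genes are not reported here. Alternatives were a pseudocount of 0.1, no filter, a filter at 5 FPKM, upper-quartile and quantile scaling, eBayes without trend, a block by replicate letter, each library left out, and summed rows per symbol. Markers of stem cells, endoderm, fibroblasts and trophoblast were summed: the 6 fibroblast markers came to 9.50, 5.79, 0.258 and 2.87 FPKM in control A and B and knockdown A and B, and the 6 trophoblast markers to 25.7, 23.3, 24.3 and 32.0.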

Additional observations from a re-analysis of the deposited data

How the results depend on the processing

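Among the 8 genes 0 were called under each alternative except summed rows, for which calls were not counted. Of the 7 with a value, the sign turned for Sqle, Fdft1 and Cyp51, each only without control A. Leaving out 1 library at a time moved the median log2 fold change of the 7 genes between 0.12 and 0.70, that of Sqle between -0.015 and 0.95, Fdft1 between -0.0061 and 0.61, and Cyp51 between -0.18 and 0.64, each lowest without control A and highest without control B. The range was -0.33 to 0.084 for Srebf1, -0.27 to 0.37 for Srebf2 and -0.024 to 0.60 for Scap. Over all loci 4 were called, against 1 with no filter, 2 with eBayes without trend, and 0 to 423 with a library left out (0 without either control, 14 without knockdown A and 423 without knockdown B). Kdm5b passed limma only without knockdown B. Other pathway genes called numbered 0 in each fit that kept all 4 libraries. Without knockdown B, which leaves knockdown A alone in its group, the log2 fold change was -2.14 for Insig2 and -2.20 for Acss2. The cause of the differing counts over all loci was not tested. With a library left out, a lone library is assumed to vary like the other group. With the replicate letter as a block 7 loci were called, 0 of them among the 8 genes or the other pathway genes; same-letter deviations correlated at -0.068 across loci, so the letters were not taken to pair the libraries. At a filter of 5 FPKM Idi1 was not tested. Hmgcs1 had no value under any setting. The lowest values rest on few estimated fragments, 4.21 for Idi1 in control A and 2.05 for Acss2 in knockdown A.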
